A study of Mus musculus with 12 samples.

Results

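The genes described here are 10 stress-inducible genes of mouse kidney: the heat shock genes Hspa1a, Hspa1b, Hspb1, Dnajb1 and Hsph1 and the immediate early genes Fos, Jun, Junb, Egr1 and Atf3. They were taken by gene symbol from a table of 45777 genes, and all 10 were among the 18730 genes that passed the filter on low counts. Bulk RNA was sequenced from kidneys of male wild-type C57BL/6 mice in 12 libraries, 3 in each of 4 groups. Mice of the PBS group were given cisplatin, an anticancer platinum compound toxic to renal tubules, at 9 mg/kg into the peritoneum once a week for 5 cycles, and then phosphate-buffered saline (PBS) intravenously. Mice of the EV200 and EV400 groups received the same cisplatin course and then 200 µg or 400 µg of iMSC-EVs, extracellular vesicles named in the labels by their source cells. The intravenous injections of these 3 groups were given 5 times, 3 days apart, and kidneys were taken 3 days after the last. Normal mice had no cisplatin and no vesicles, and they are listed without injections, so cisplatin and injections cannot be told apart in PBS against normal. No group received vesicles without cisplatin. The labels name 3 biological replicates per group without saying that each came from a separate mouse, so p-values measure only the spread between these samples. They give 1 batch and no hour of collection.

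Heat shock proteins are chaperones that bind unfolded proteins. When unfolded proteins accumulate, heat shock factor 1 binds GAA-containing elements in the promoters of inducible chaperone genes and raises their transcription. Immediate early genes encode short-lived transcription factors and regulators that are switched on within minutes of growth factor, injury or stress signals, without new protein synthesis, and their mRNAs decay quickly. Both families are known to respond in kidney tubules to ischaemia and to toxins, and immediate early genes also respond to tissue handling in general.

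Hspa1a (chromosome 17, 34969359 to 34972156, GRCm38.p6) and Hspa1b (chromosome 17, 34956429 to 34959238) encode the inducible HSP70 and are near-identical copies. In GENCODE vM21 transcripts their coding sequences agreed at 1916 of 1926 aligned bases (99.5%), their 5′ UTRs at 98.7% and their 3′ UTRs at 51.6%. Of the stretches of 101 bases, the read length, 46.9% in the Hspa1a transcript and 49.7% in the Hspa1b transcript occur exactly in the other copy. Reads from those stretches cannot be assigned to 1 copy, so the division of counts between the pair is uncertain and their summed count is given beside each. Hspa1a held 42.0 to 43.8% of the pair's counts in PBS, 40.2 to 44.3% in EV200, 45.6%, 44.8% and 46.8% in EV400, and 44.8 to 46.2% in normal libraries.

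The promoters of 5 members are shown because they hold a pair of the GAA units that heat shock factor 1 binds; each is the 250 bases upstream of a RefSeq transcript start (GRCm38.p6), 5′ to 3′ on the gene's strand, with the matches to GAANNTTC or TTCNNGAA in capitals. Where a gene had several starts, the first listed is shown.
Hspa1a: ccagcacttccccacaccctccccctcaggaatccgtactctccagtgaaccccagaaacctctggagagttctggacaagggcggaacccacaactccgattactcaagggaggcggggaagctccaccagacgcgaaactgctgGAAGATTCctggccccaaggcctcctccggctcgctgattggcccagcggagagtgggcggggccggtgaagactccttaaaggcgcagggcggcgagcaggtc
Hspa1b: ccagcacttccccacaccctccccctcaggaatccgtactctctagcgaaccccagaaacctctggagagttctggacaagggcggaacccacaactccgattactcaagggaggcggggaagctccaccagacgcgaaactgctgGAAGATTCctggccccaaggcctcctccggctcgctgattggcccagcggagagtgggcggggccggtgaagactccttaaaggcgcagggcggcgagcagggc
Hspb1: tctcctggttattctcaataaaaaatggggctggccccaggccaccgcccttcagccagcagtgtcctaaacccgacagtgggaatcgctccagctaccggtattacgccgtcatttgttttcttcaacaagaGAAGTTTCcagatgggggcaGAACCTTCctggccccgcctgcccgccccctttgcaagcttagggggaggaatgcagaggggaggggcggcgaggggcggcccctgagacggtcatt
Hsph1: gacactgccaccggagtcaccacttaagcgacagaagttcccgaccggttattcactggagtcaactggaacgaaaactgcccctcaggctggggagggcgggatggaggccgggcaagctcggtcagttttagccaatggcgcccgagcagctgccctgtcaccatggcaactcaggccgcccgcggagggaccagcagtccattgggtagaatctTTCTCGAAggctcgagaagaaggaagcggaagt
Jun: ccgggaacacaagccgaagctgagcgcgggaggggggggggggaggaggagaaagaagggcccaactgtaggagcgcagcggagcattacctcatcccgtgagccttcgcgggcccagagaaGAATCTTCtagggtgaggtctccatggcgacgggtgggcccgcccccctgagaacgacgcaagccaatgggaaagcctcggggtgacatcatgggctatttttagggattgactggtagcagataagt
These are chr17:34972157-34972406, chr17:34959239-34959488, chr5:135887669-135887918, chr5:149636337-149636586 and chr4:95052223-95052472, all on the minus strand but that of Hspb1.

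The Hspa1a and Hspa1b promoters agreed at 247 of 250 bases and hold GAAGATTC at the same place. GAANNTTC occurred in 3 of 5 heat shock members and in Jun among the 4 immediate early members with a promoter in the table, and TTCNNGAA in Hsph1 alone of these 9. Both motifs read the same on either strand and do not overlap one another in these windows. Of all 32851 mouse promoter windows of this length, 6.69% hold GAANNTTC and 7.17% hold TTCNNGAA. A longer element of 3 alternating GAA and TTC units, spaced by NN, the cyclic AMP response element TGACGTCA, the AP-1 site TGANTCA and the serum response CArG box matched in none of the windows of these 9 genes (Dnajb1 and Hsph1 have 2 each), against 0.466%, 1.55%, 6.75% and 1.47% of all windows, both strands searched. A match is a description of the letters, and no match covers this window only.

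Levels between genes were compared in TPM, the authors' values scaled for transcript length and library size. In PBS kidneys Hsph1, encoding the HSP110 nucleotide exchange factor, was highest at 67.6 ± 8.56 TPM, and the HSP40 cochaperone gene Dnajb1 followed at 25.3 ± 1.29 TPM (SD, n = 3). Hspa1b stood at 21.4 ± 3.37, Junb at 16.4 ± 2.91, Hspa1a at 16.3 ± 2.58, the small heat shock protein gene Hspb1 at 16.3 ± 5.30, Jun at 15.3 ± 4.46 and Egr1 at 8.75 ± 0.325 TPM. Atf3, at 2.70 ± 1.25 TPM, and Fos, at 2.42 ± 1.88 TPM, were lowest. The libraries of Hspa1b, Junb, Hspa1a, Hspb1 and Jun overlapped one another, as did those of Dnajb1 with Hspa1b and of Atf3 with Fos. In normal kidneys Hsph1 had 61.1 ± 1.74 and Dnajb1 20.8 ± 0.944 TPM, Junb and Hspa1b 10.4 ± 0.623 and 10.1 ± 0.758, and Atf3 and Fos 0.704 ± 0.0726 and 0.525 ± 0.363 TPM (SD, n = 3). The TPM are not scaled between libraries as the CPM below are, so differences between groups were taken from CPM, counts scaled to library size with TMM factors.

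**Figure D1:**
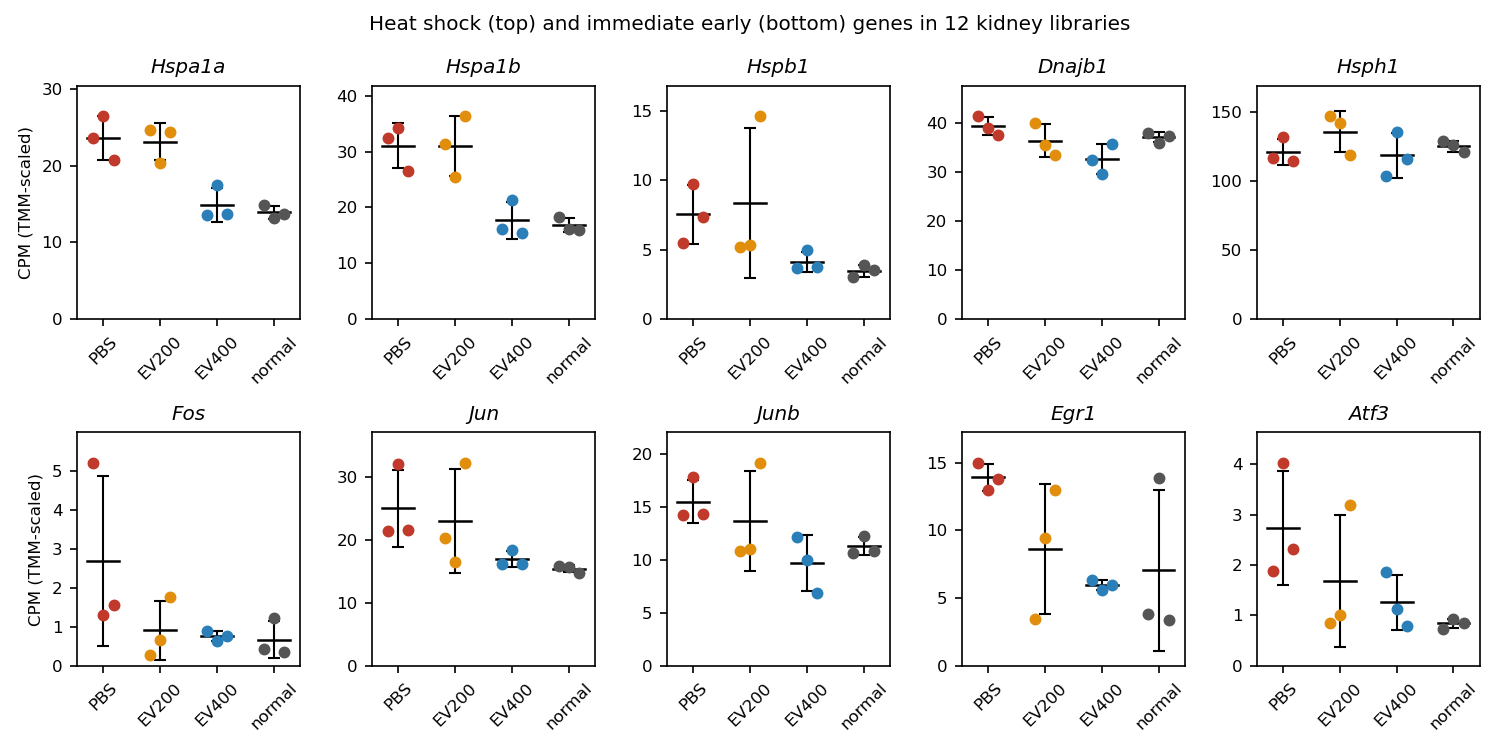
CPM of each of the 10 genes in every library, 1 panel a gene, with groups along the x axis, a point per library and a bar at the group mean. Hspa1a and Hspa1b form a higher level in PBS and EV200 and a lower one in EV400 and normal, and in EV200 the third library is the highest for Hspa1b, Hspb1, Fos, Jun, Junb, Egr1 and Atf3.

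The inducible HSP70 pair was higher after cisplatin and PBS than in normal kidneys, stood at the same height in the EV200 libraries, and lay near the normal level in the EV400 libraries. Hspa1a had 23.6, 26.4 and 20.7 CPM in PBS, 24.6, 20.3 and 24.4 CPM in EV200, 13.5, 17.4 and 13.7 CPM in EV400 and 14.8, 13.2 and 13.7 CPM in normal libraries. Hspa1b had 32.5, 34.2 and 26.5 CPM in PBS, 31.3, 25.5 and 36.3 CPM in EV200, 16.1, 21.4 and 15.5 CPM in EV400 and 18.2, 16.2 and 16.0 CPM in normal libraries. Each PBS and each EV200 library lay above each EV400 and each normal library in both genes, PBS overlapped EV200, and EV400 overlapped normal.

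In PBS against normal, Hspa1a averaged 23.55 ± 2.89 against 13.90 ± 0.836 CPM, a log2 fold change of 0.76 (SE 0.13), and rose. Hspa1b averaged 31.08 ± 4.08 against 16.81 ± 1.18 CPM, a log2 fold change of 0.89 (SE 0.15), and rose as well (SD, n = 3). Their Benjamini-Hochberg adjusted p by edgeR were 0.0321 and 0.0355. The sum of the pair had 0.83 (SE 0.14, 95% interval 0.53 to 1.13), a 1.78-fold difference with an adjusted p of 0.0321 by edgeR. These were the 2 members called, and 2.74% of all genes were called in this comparison. Both calls were lost without any 1 of normal 1, normal 2, normal 3, PBS 2, EV400 1 or EV400 2. Without those, the adjusted p of the sum by edgeR was 0.118, 0.144, 0.132, 0.0961, 0.0521 and 0.0571, at log2 fold changes of 0.894, 0.806, 0.817, 0.759, 0.839 and 0.829. With a clock score as covariate the log2 fold change of the sum was 0.478 (SE 0.258, adjusted p 0.912 by edgeR), and 0% of all genes were called.

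In EV200 against PBS the sum of the pair had 55.9, 45.8 and 60.7 CPM against 56.1, 60.7 and 47.1 CPM. The log2 fold change was -0.01 (SE 0.14, 95% interval -0.31 to 0.28), at an adjusted p of 0.976 by edgeR. In EV200 against normal, whose libraries had 33.0, 29.4 and 29.8 CPM, the sum had 0.82 (SE 0.14, adjusted p 0.0607 by edgeR) and missed the threshold, with no overlap of libraries. In EV400, at 29.5, 38.8 and 29.2 CPM, the sum had -0.75 against PBS (SE 0.14, 95% interval -1.05 to -0.45, adjusted p 0.0749 by edgeR). Against EV200 it had -0.74 (SE 0.14, 95% interval -1.04 to -0.44), with an adjusted p of 0.769 by edgeR and an unadjusted p of 0.00018. Against normal it had 0.08 (95% interval -0.22 to 0.38). For EV400 against PBS, EV400 against EV200 and EV200 against normal, DESeq2 gave the sum adjusted p of 0.000166, 0.00371 and 1.97e-05. Limma-voom with quality weights for the libraries gave 0.00773, 0.0356 and 0.00477 in the same order. These weights, used wherever limma-voom is named, were lowest in PBS 2 (0.163), EV200 3 (0.283) and EV400 3 (0.344). They were highest in PBS 3 (3.47) and EV400 1 (3.38).

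Hspb1 encodes HSP27, a small heat shock protein that holds unfolded proteins and binds actin (chromosome 5, 135887919 to 135889563). It had 5.51, 9.76 and 7.37 CPM in PBS, 5.17, 5.37 and 14.6 CPM in EV200, 3.69, 4.97 and 3.73 CPM in EV400 and 3.03, 3.86 and 3.55 CPM in normal libraries. Each PBS and each EV200 library exceeded each EV400 and each normal library, and EV200 3 was the highest of the 12. In PBS against normal its log2 fold change was 1.12 (SE 0.36, adjusted p 0.0804 by edgeR). In EV400 against PBS it was -0.87 (SE 0.36, adjusted p 0.191), and in EV200 against PBS 0.15 (SE 0.35), which was -0.52 without EV200 3.

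The remaining chaperone genes differed by little, and neither passed edgeR's test in any comparison. Dnajb1, encoding the HSP40 that delivers clients to HSP70 (chromosome 8, 83608175 to 83612653), had 41.4, 39.1 and 37.7 CPM in PBS, 40.1, 35.6 and 33.5 CPM in EV200, 32.4, 29.7 and 35.8 CPM in EV400 and 38, 36 and 37.4 CPM in normal libraries. The EV400 libraries were the lowest as a group and lay below each PBS and each normal library. Its log2 fold change was 0.09 in PBS against normal (95% interval -0.11 to 0.28) and -0.27 in EV400 against PBS (SE 0.09, adjusted p 0.157 by edgeR). Hsph1, encoding the exchange factor that releases ADP from HSP70 (chromosome 5, 149616843 to 149636498), had 117, 132 and 115 CPM in PBS, 147, 142 and 119 CPM in EV200, 104, 136 and 116 CPM in EV400 and 129, 126 and 121 CPM in normal libraries. All 4 groups overlapped. The 95% intervals of its log2 fold changes were -0.29 to 0.19 in PBS against normal, -0.07 to 0.41 in EV200 against PBS and -0.27 to 0.21 in EV400 against PBS. With library totals alone as scaling, which moved the median of all genes in PBS against normal to 0.17, the PBS against normal value of Hsph1 was 0.122 instead of -0.05.

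Averaged over the 5 immediate early genes, the PBS libraries and EV200 3 were highest. EV200 1, EV200 2 and the EV400 libraries lay below the mean over all libraries, EV400 1 only just (-0.03). Normal 1 and normal 3 lay below it too, and normal 2 just above (0.08). None of the genes passed edgeR's test in any comparison. Fos, encoding the AP-1 subunit c-Fos (chromosome 12, 85473890 to 85477274), had 5.20, 1.31 and 1.56 CPM in PBS, 0.279, 0.665 and 1.76 CPM in EV200, 0.876, 0.622 and 0.765 CPM in EV400 and 0.438, 1.21 and 0.353 CPM in normal libraries. PBS 1, with 251 reads, stood far above the 17 to 102 reads of the other libraries. Fos averaged 2.690 ± 2.18 CPM in PBS against 0.6675 ± 0.473 CPM in normal (SD, n = 3), a log2 fold change of 2.00 (SE 0.70, adjusted p 0.0938 by edgeR). It was 1.10 without PBS 1 and 2.76 without normal 2. In EV400 against PBS it was -1.82 (SE 0.70, adjusted p 0.176), and -0.92 without PBS 1. In EV200 against PBS it was -1.57 (SE 0.68, adjusted p 0.657 by edgeR, unadjusted p 0.0404), -0.67 without PBS 1 and -2.51 without EV200 3.

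Jun, encoding the AP-1 subunit c-Jun that pairs with c-Fos (chromosome 4, 95049036 to 95052222), had 21.4, 32.1 and 21.5 CPM in PBS, 20.3, 16.4 and 32.2 CPM in EV200, 16.1, 18.4 and 16.2 CPM in EV400 and 15.8, 15.7 and 14.7 CPM in normal libraries. PBS 2 and EV200 3 were highest, and normal libraries lay below all others. Its log2 fold change was 0.70 in PBS against normal (SE 0.22, adjusted p 0.0745 by edgeR) and -0.57 in EV400 against PBS (SE 0.22, adjusted p 0.178), or -0.342 without PBS 2. Junb, encoding a further AP-1 subunit (chromosome 8, 84976909 to 84978748), had 14.3, 17.9 and 14.4 CPM in PBS, 10.9, 11 and 19.2 CPM in EV200, 12.2, 10 and 6.91 CPM in EV400 and 10.7, 12.3 and 10.9 CPM in normal libraries. PBS exceeded EV400 and normal in each library, EV200 3 was the highest and EV400 3 the lowest. Its log2 fold change was 0.46 in PBS against normal (SE 0.23, adjusted p 0.207 by edgeR) and -0.68 in EV400 against PBS (SE 0.24, adjusted p 0.162).

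Egr1, encoding a zinc finger factor induced by growth factor signals (chromosome 18, 34861207 to 34864956), had 15.0, 13.0 and 13.8 CPM in PBS, 3.48, 9.44 and 13.0 CPM in EV200, 6.36, 5.62 and 6.00 CPM in EV400 and 3.85, 13.9 and 3.40 CPM in normal libraries. Normal 2 stood at the PBS level, and the EV400 libraries were close together below PBS. The log2 fold change in PBS against normal was 0.99 (SE 0.50, adjusted p 0.209 by edgeR), and 1.95 without normal 2. In EV400 against PBS it was -1.22 (SE 0.51, adjusted p 0.192). Atf3, encoding a stress-induced repressor of the ATF/CREB family (chromosome 1, 191170296 to 191183333), had 1.89, 4.03 and 2.31 CPM in PBS, 0.853, 0.997 and 3.20 CPM in EV200, 1.86, 1.12 and 0.788 CPM in EV400 and 0.737, 0.924 and 0.851 CPM in normal libraries. PBS 2 and EV200 3 were highest, and each PBS library lay above each normal and each EV400 library. The log2 fold change was 1.71 in PBS against normal (SE 0.50, adjusted p 0.0658 by edgeR) and -1.13 in EV400 against PBS (SE 0.49, adjusted p 0.201), or -0.735 without PBS 2.

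**Figure D2:**
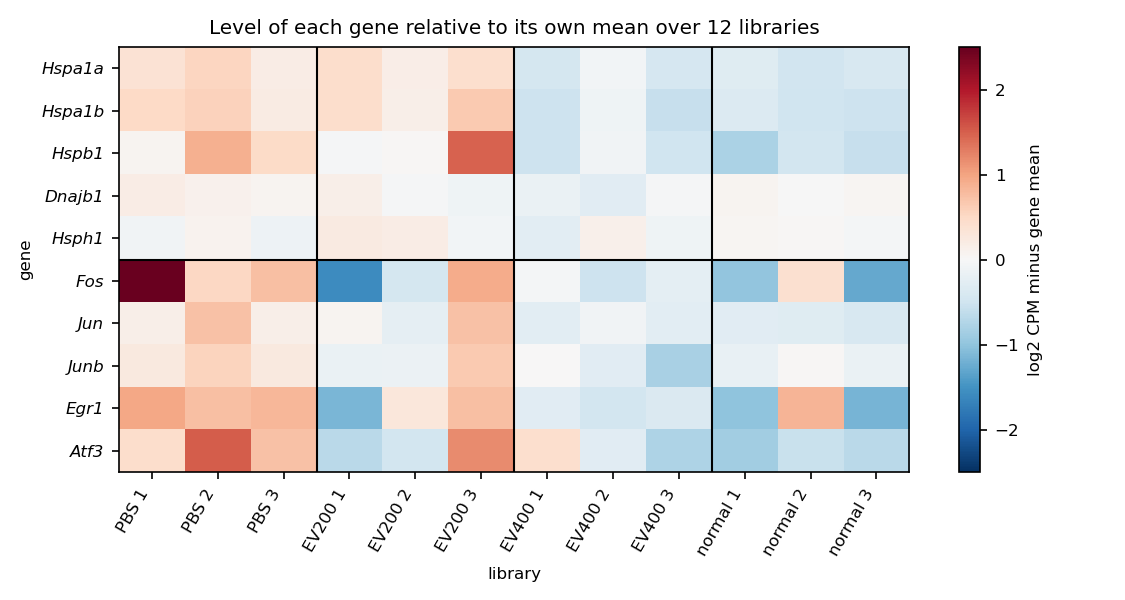
Log2 CPM of each gene (rows) in each library (columns) minus the gene's mean over the 12 libraries, red above and blue below that mean; lines part the groups and the heat shock from the immediate early genes. Hspa1a and Hspa1b are red in all PBS and EV200 libraries, Dnajb1 and Hsph1 are pale throughout, and the immediate early genes are red in PBS and EV200 3 but mostly blue in EV200 1 and EV200 2.

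The mean over the 5 genes of each family, each centred on its own mean over the 12 libraries, sets the families side by side on the log2 CPM scale. The heat shock mean was 0.21, 0.44 and 0.16 in PBS, 0.24, 0.10 and 0.47 in EV200, -0.38, -0.08 and -0.32 in EV400 and -0.26, -0.28 and -0.30 in normal libraries. The immediate early mean was 0.85, 0.82 and 0.54 in PBS, -0.70, -0.20 and 0.85 in EV200, -0.03, -0.32 and -0.49 in EV400 and -0.67, 0.08 and -0.74 in normal libraries. EV200 1 and EV200 2 were thus on the PBS side in the heat shock mean and on the normal side in the immediate early mean. No difference between the families was tested. The heat shock mean counts the near-identical Hspa1a and Hspa1b separately. In EV200 1 and EV200 2, Hspa1a had 0.43 and 0.16 and Hspa1b 0.44 and 0.15. Hsph1 had 0.23 and 0.19 there, but -0.09, 0.08 and -0.12 in PBS. Hspb1 had -0.03 and 0.03 and Dnajb1 0.14 and -0.03, so the PBS side of that mean does not hold for each gene. Among the 10 genes, by root mean square difference of the centred log2 CPM over the 12 libraries, the closest pairs were Hspa1a with Hspa1b at 0.10, Dnajb1 with Hsph1 at 0.17 and Hspa1a with Jun at 0.21. The genes' own SDs were 0.39 for Hspa1a and Jun, 0.48 for Hspa1b, 0.13 for Dnajb1 and 0.14 for Hsph1, so the distance of the Dnajb1 and Hsph1 pair exceeded the spread of either gene. Among 10666 genes averaging at least 5 CPM, Map3k21, Slc4a8 and Sort1 lay closest to the heat shock mean, at 0.05, 0.09 and 0.10, where the mean itself had an SD of 0.31. Nrros, Dtx4 and Ier5 lay closest to the immediate early mean, at 0.27, 0.28 and 0.28, with an SD of 0.62.

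Counted over the 10 genes, 7 lay higher in each PBS library than in each normal library and 0 lower, with Dnajb1, Hsph1 and Egr1 overlapping, and 20.3% of all genes lay higher in that way. In EV400 against PBS, 9 lay lower in each EV400 library, with Hsph1 overlapping, and 13.8% of all genes did so. In EV200 against normal 4 lay higher in each library, Hspa1a, Hspa1b, Hspb1 and Jun, against 11.9% of all genes. In EV200 against PBS all 10 overlapped. In EV400 against EV200, Hspa1a, Hspa1b and Hspb1 lay lower in each library, as did 5.57% of all genes. In EV400 against normal Jun lay higher, as did 8.28% of all genes, and Dnajb1 lower, as did 10.6%. The median log2 fold change of the 10 genes was 0.82 in PBS against normal, -0.12 in EV200 against PBS and -0.74 in EV400 against PBS, and that of all genes tested lay within 0.02 of 0 in each. PBS enters all 3 of these comparisons, so they are not independent.

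By edgeR 0 of the 10 genes were called in EV200 against PBS, where 0.0160% of all genes were, in EV400 against PBS (0.0801%), in EV200 against normal (0.0694%), in EV400 against normal (0% of all genes) and in EV400 against EV200 (0.00534%). At an unadjusted p under 0.05 by edgeR there were 6 of the 10 in PBS against normal, where 29.8% of all genes had one, 1 in EV200 against PBS (6.90% of all genes), 9 in EV400 against PBS (23.5%), 4 in EV200 against normal (13.2%), 0 in EV400 against normal (6.98%) and 3 in EV400 against EV200 (6.34%). DESeq2 called 6 of the 10 in PBS against normal, with 15.2% of all genes called, 0 in EV200 against PBS (0.256%), 2 in EV400 against PBS (5.36%), 3 in EV200 against normal (2.62%), 0 in EV400 against normal (0.187%) and 2 in EV400 against EV200 (0.0908%). Limma-voom called 8 of the 10 in PBS against normal, with 32.9% of all genes called, 2 in EV200 against PBS (8.80%), 5 in EV400 against PBS (14.6%), 2 in EV200 against normal (5.86%), 1 in EV400 against normal (7.91%) and 2 in EV400 against EV200 (0.774%). Hspa1a and Hspa1b, whose division of counts is uncertain, were the only members called by DESeq2 in EV400 against PBS. The same held for both methods in EV400 against EV200 and for limma-voom in EV200 against normal. These counts therefore take near-identical copies as separate genes. The joint test for any difference among the 4 groups called 0 of the 10 by edgeR, against 0.0641% of all genes, with the smallest adjusted p, 0.0574, for Hspa1a. At an unadjusted p under 0.05 in that test there were 6 of the 10 and 19.7% of all genes; DESeq2 called 4 and 9.22% of all genes, and limma-voom 8 and 35.4%.

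**Figure D3:**
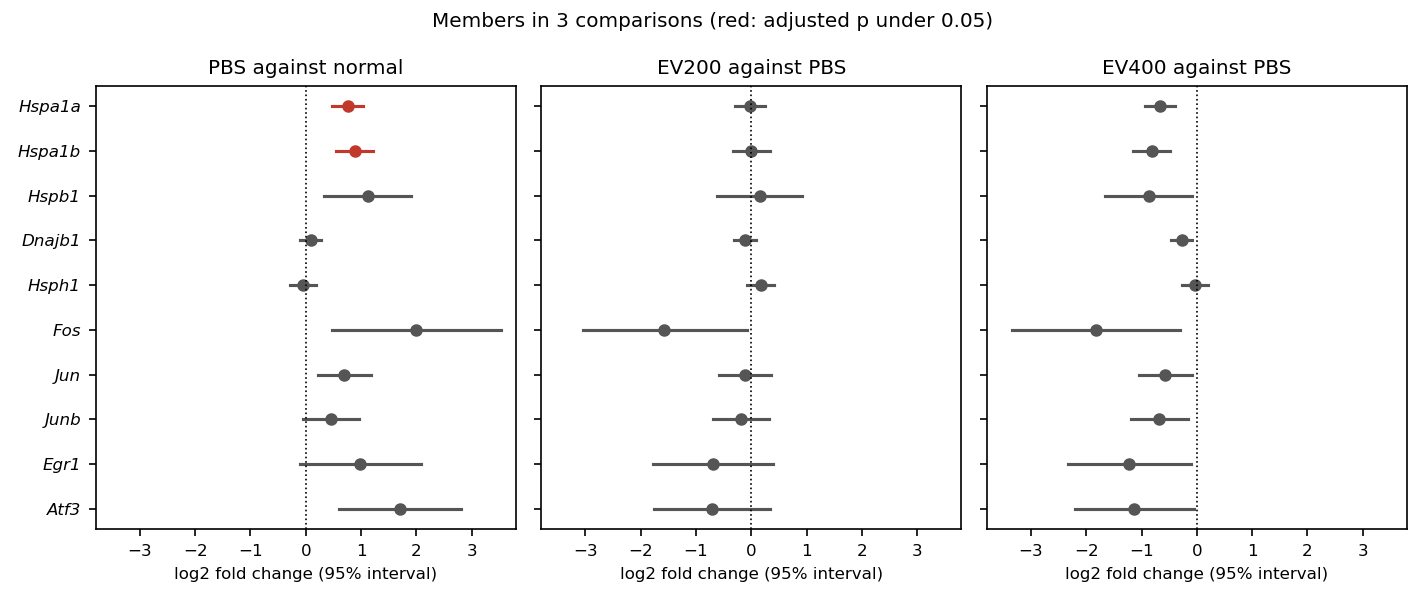
Log2 fold change (x axis) of each of the 10 genes (y axis) in 3 comparisons, with 95% intervals from edgeR's fit as bars and the genes called at an adjusted p under 0.05 in red. Hspa1a and Hspa1b have narrow intervals above 0 in PBS against normal, around 0 in EV200 against PBS and below 0 in EV400 against PBS; Fos has the widest intervals.

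Several measures of the libraries are given beside these genes. None of the 8 kidney tubule markers was at 0 in all libraries of any group. They summed to 9380 to 13200 CPM in PBS, 11000 to 14700 in EV200, 11800 to 13500 in EV400 and 13500 to 13800 in normal. The 8 macrophage markers summed to 318, 620 and 404 CPM in PBS, 187, 210 and 549 CPM in EV200, 265, 271 and 125 CPM in EV400 and 130 to 152 CPM in normal, and none was at 0 in all libraries of any group. The high libraries in that sum, PBS 2 and EV200 3, were also the highest for Hspa1b, the summed pair, Jun, Junb, Hspb1 and Atf3. EV200 1 and EV200 2 lay below EV400 1 and EV400 2 in the macrophage sum. In the summed pair they lay above them, at 55.9 and 45.8 against 29.5 and 38.8 CPM. The remaining vesicle libraries had the same order in both sums. EV200 3 was high in both, at 549 CPM and 60.7 CPM, and EV400 3 was the lowest library in both, at 125 CPM and 29.2 CPM. The 6 fibroblast markers ranged over 168 to 484 CPM in PBS, 112 to 293 in EV200, 74.7 to 176 in EV400 and 115 to 122 in normal. The 7 urothelial markers ranged over 10.4 to 24.4 CPM in PBS, 2.87 to 27.1 in EV200, 2.46 to 7.70 in EV400 and 1.83 to 3.40 in normal. Endothelial markers lay between 309 and 383 CPM in all libraries, and the 5 erythroid markers at 285 to 458 CPM in PBS and 546 to 1160 CPM in the 9 other libraries. The part of these cell types in the results was not tested, and in bulk tissue fewer cells of a type and less RNA per cell cannot be told apart. PBS 3 held adipocyte transcripts, with 6 markers summing to 96.1 CPM where the sums elsewhere were 13.5 to 63.5 CPM, and Adipoq, Plin1 and Lep were at 0 in all EV400 and normal libraries. The clock score, high where Dbp, Tef, Per2, Per3 and Ciart are high and Arntl, Npas2 and Clock low, was -3.98, -3.06 and -1.16 in PBS, -0.06 to 0.64 in EV200, 1.21 to 2.63 in EV400 and 0.30 to 0.67 in normal libraries. EV400 3, the lowest library for Hspa1b, the summed pair and Junb, stood apart with 19.7% of its counts in mitochondrial mRNA, against 14.2 to 18.1% in the other libraries (18.1% in PBS 2), and a second principal component of -51.5, against -15.7 to 18.1. The part of these measures in the results was not tested. The clock score was lower in each PBS library than in each other library. The covariate fit given above therefore cannot tell the clock from the group in comparisons with PBS.

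Other genes of the same pathways were read from lists of chaperone and heat shock factor genes, of immediate early genes and of targets of ATF4, the factor of the integrated stress response. In PBS against normal, where 2.74% of all genes were called, 1 of 33 other heat shock genes rose and 0 fell. Their median log2 fold change was within 0.01 of 0. The riser was Dnajb4, an HSP40 gene, at 30.30 ± 6.47 against 20.81 ± 0.976 CPM (SD, n = 3; log2 fold change 0.54, SE 0.12, adjusted p 0.0471 by edgeR). The constitutive HSP70 gene Hspa8, by far more abundant, had 1825 ± 80.8 CPM in PBS against 2267 ± 114 CPM in normal on average, a log2 fold change of -0.31 (adjusted p 0.0761). Of 37 other immediate early genes tested, 3 rose and 0 fell, against 2.74% of all genes called. At an unadjusted p under 0.05 there were 23 of them, against 29.8% of all genes, and their median was 0.54. The antiproliferative gene Btg2 averaged 17.88 ± 2.92 against 9.909 ± 0.475 CPM (log2 fold change 0.85, adjusted p 0.0461 by edgeR). The Krüppel-like factor gene Klf2 averaged 9.121 ± 0.86 against 6.250 ± 0.206 CPM (0.55, adjusted p 0.0498), and the orphan nuclear receptor gene Nr4a3 0.8444 ± 0.283 against 0.1693 ± 0.0475 CPM (2.31, adjusted p 0.0484). Of 10 ATF4 and integrated stress response genes 0 were called and 2 had an unadjusted p under 0.05 (29.8% of all genes), the cystine transporter gene Slc7a11 at 1.80 (adjusted p 0.119) and the serine synthesis gene Psat1 at 0.26 (adjusted p 0.125). Without normal 1, normal 2 or normal 3 edgeR called 0 of all genes, and without PBS 2 it called 1 gene, which was lower, so none of the rises named here is called without any of these libraries.

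In EV400 against PBS edgeR called 0 genes of these 3 lists, against 0.0801% of all genes. At an unadjusted p under 0.05, which 23.5% of all genes had, there were 10 of the 33 other heat shock genes, and their median was -0.04. The smallest p were those of Bag3, encoding an HSP70 cochaperone, at 21.59 ± 2.12 against 29.87 ± 2.15 CPM (log2 fold change -0.47, adjusted p 0.0737 by edgeR), and of Dnajb4 at 20.54 ± 1.26 against 30.30 ± 6.47 CPM (-0.56, adjusted p 0.106). There were 14 of the 37 other immediate early genes at that level, with a median of -0.43. Ier5, encoding an immediate early protein that acts on heat shock factor 1, averaged 7.267 ± 1.01 against 12.78 ± 1.69 CPM (-0.81, adjusted p 0.123), whereas Csrnp1, encoding a nuclear protein, averaged 7.219 ± 0.997 against 3.955 ± 0.619 CPM (0.87, adjusted p 0.0869). Of the ATF4 list 1 of 10 was at that level, Psat1 at -0.30 (adjusted p 0.161).

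In EV200 against PBS edgeR again called 0 genes of the 3 lists, against 0.0160% of all genes. At an unadjusted p under 0.05 there were 5 of 33, 4 of 37 and 2 of 10, against 6.90% of all genes. The medians were -0.01, -0.07 and -0.03. Hspa8 averaged 2363 ± 197 CPM in EV200 against 1825 ± 80.8 CPM in PBS (log2 fold change 0.37, adjusted p 0.652 by edgeR), and Dnajb4 had -0.36 (adjusted p 0.657). Csrnp1, at 0.75, and Mafk, encoding a small Maf factor, at 0.40, had an adjusted p of 0.589 each, and Ppp1r15a, encoding the eIF2α phosphatase subunit GADD34, had 0.27 and Psat1 -0.25 (adjusted p 0.657 each).

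**Figure D4:**
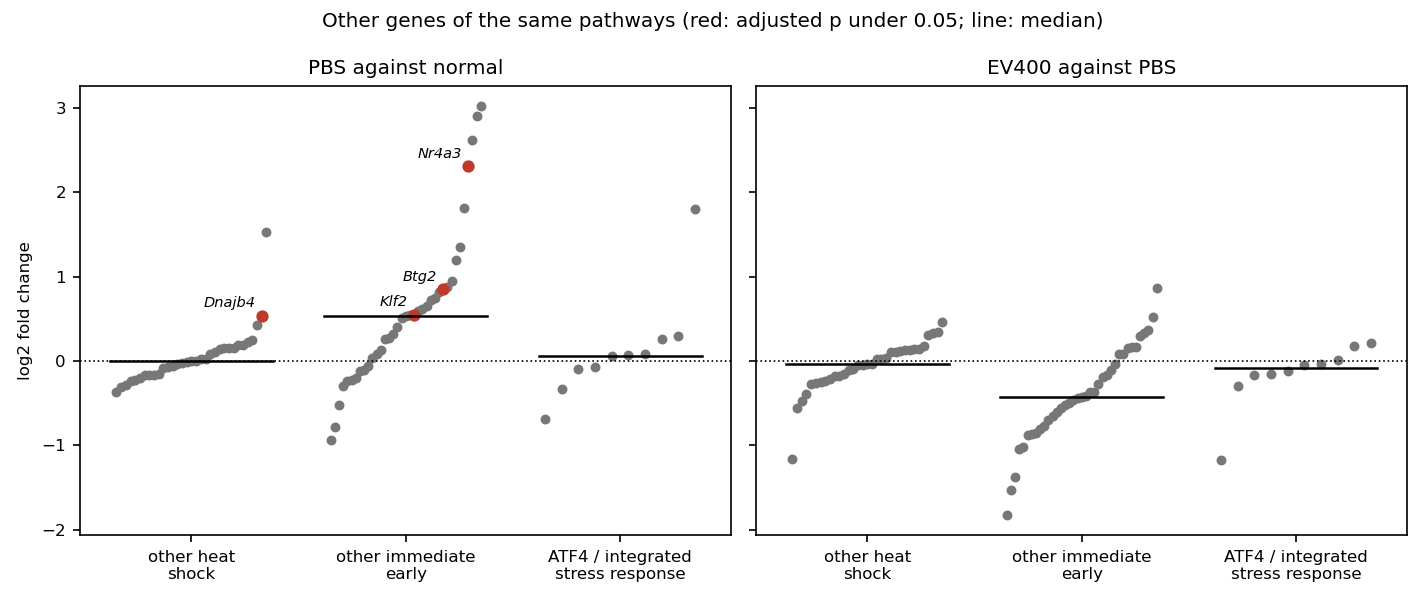
Log2 fold change (y axis) of the tested genes of 3 lists, other heat shock, other immediate early and ATF4 genes, in PBS against normal and EV400 against PBS. Each gene is a point, and a bar marks the list's median. The immediate early list has medians of 0.54 and -0.43, while the medians of the other 2 lists stay near 0.

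Exons of Hspa1a overlap those of the provisional gene Gm20481 by 564 bases, those of Jun overlap Junos by 232 and those of Junb overlap Prdx2 by 173, each on the opposite strand in GENCODE vM21. The libraries were made with a stranded kit, but the strand setting of the counting is not given in the sources used here, so reads of the members of each pair in these stretches cannot be told apart. The 10 genes together held 0.0192 to 0.0345% of the 46.6 to 62.1 M counts per library.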

How the data were processed

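Kidney RNA of 4 groups of 3 libraries was sequenced as paired reads of 101 bases from a stranded poly(A) kit, per the labels' protocols. Tools listed, per the submitters' processing notes, are HISAT2 2.1.0, StringTie 2.1.3b, Trimmomatic 0.38 and FastQC 0.11.7, on mm10 (GRCm38). What counted the reads, with which strand setting and annotation, is not given in the sources used here. Read counts per gene, whole numbers as the authors deposited them, were used unchanged, with 0 rows naming no gene. The authors also deposited TPM, used for levels between genes only, while 12 FPKM columns were not used. Total counts were 46.6 to 62.1 M per library.

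Counts were tested in R 4.3.3 by edgeR 4.0.16 (quasi-likelihood test): all 12 libraries in 1 fit, TMM factors, the default filter by group (18730 genes, 8 residual degrees of freedom), Benjamini-Hochberg adjustment over all genes, called under 0.05. With Hspa1a and Hspa1b summed, 18729 genes entered. The test was also run on counts simulated from the mean levels and dispersions of this fit, with results not given here. The alternatives were other scalings and filters, DESeq2 1.42.0 and limma-voom with quality weights for the libraries (limma 3.58.1). Further alternatives were the replicate number as a block, the compared groups alone, the clock score as covariate, and libraries left out. For the clock score, standardized log2 CPM were averaged over Ciart, Dbp, Per2, Per3 and Tef, and the average over Arntl, Clock and Npas2 was subtracted. All members were named; of each other list up to 4 called genes per comparison, or else at most 2 with the smallest p, and Hspa8 in PBS against normal was named after its values were seen. Promoters came from RefSeq (GRCm38.p6), where 9 of the 10 members matched. The members, lists and alternatives were chosen with earlier results of these data known.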

Additional observations from a re-analysis of the deposited data

How the results depend on the processing

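The number of the 10 genes called depended on the method. In PBS against normal it was 2 by edgeR (2.74% of all genes), 6 by DESeq2 (15.2%), 8 by limma-voom (32.9%) and 5 with only the groups compared (8.04%). It was 0 with the clock score (0%) and 6 without PBS 3 and EV200 3 together (8.99%). Without 1 library it was 0 to 6, with 0 to 12.6% of all genes called (6 and 12.6% without EV200 3). In EV200 against PBS limma-voom called 2 (8.80%). In EV400 against PBS DESeq2 called 2 (5.36%), limma-voom 5 (14.6%), and the fit without PBS 3 and EV200 3 called 2 (0.516%). Without 1 library it was 0 to 1 there (1 and 0.342% without EV200 3). In EV200 against normal a mean CPM of at least 1 gave 1 (0.194%), DESeq2 3 (2.62%) and limma-voom 2 (5.86%). Leaving out 1 library gave 0 to 2 there (2 and 0.474% without PBS 2). In EV400 against normal limma-voom called 1 (7.91%). In EV400 against EV200 DESeq2 and limma-voom called 2 each (0.0908% and 0.774%), Hspa1a and Hspa1b by both. In the joint test DESeq2 called 4 (9.22%), limma-voom 8 (35.4%), and the fit without PBS 3 and EV200 3 called 2. Leaving out 1 library gave 0 to 3 (2 without PBS 3 or EV400 2, 3 without EV200 3). For the joint fits with libraries left out the share of all genes is not given here. The cause of these differences was not tested. The summed pair in PBS against normal kept its direction under every alternative run, at 0.759 to 0.925 without 1 library. It missed the threshold with the clock score (0.478). Without any 1 of normal 1, normal 2, normal 3, PBS 2, EV400 1 or EV400 2 it missed it as well (adjusted p 0.0521 to 0.144 by edgeR). Same-numbered libraries of different groups correlated at -0.39 to 0.34 over 18 pairs, and 2 of 12 libraries matched best with their own number. These values show no pairing by number, and with 3 libraries per group they cannot exclude a pairing. With the replicate block 0 of the 10 genes were called in PBS against normal (0% of all genes). The pair's sum then had 0.827 (adjusted p 0.0786 by edgeR).

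No called value changed its direction. Uncalled log2 fold changes that changed sign are given here. With the clock score, EV200 against PBS had 0.318 for the summed pair, 0.245 for Hspa1a, 0.375 for Hspa1b, -0.133 for Hspb1, 0.033 for Jun and 0.147 for Junb. Dnajb1 in PBS against normal had -0.012, EV400 against PBS had 0.014 for Hsph1 and 0.070 for Fos, and EV400 against EV200 had 0.318 for Fos. By limma-voom, EV200 against PBS had 0.001 for Hspa1a and -0.318 for Hspb1, EV400 against EV200 had 0.410 for Fos and 0.589 for Atf3, and EV400 against normal had 0.011 for Junb and 0.161 for Egr1. Hspa1b in EV200 against PBS had 0.003 without a filter and 0.006 with the replicate block. With library totals alone Dnajb1 in EV200 against normal had 0.070 and Hsph1 in PBS against normal 0.122; that scaling moved the median of all genes to 0.17 in PBS against normal, -0.17 in EV400 against PBS and 0.11 in EV200 against normal, and the 345 higher and 169 lower calls of PBS against normal to 463 and 78. Without PBS 3 and EV200 3, Hspb1 had -0.523 in EV200 against PBS, EV200 against normal had 0.041 for Dnajb1, -0.493 for Fos, -0.035 for Junb and -0.112 for Egr1, and EV400 against EV200 had 0.681 for Fos and 0.441 for Atf3.

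Without 1 library at a time, EV200 against PBS ranged over -0.109 to 0.100 for the summed pair, -0.113 to 0.069 for Hspa1a, -0.129 to 0.127 for Hspa1b, -0.520 to 0.411 for Hspb1 and -0.445 to 0.105 for Jun. EV400 against normal ranged over -0.066 to 0.172 for the summed pair, -0.037 to 0.173 for Hspa1a, -0.090 to 0.176 for Hspa1b, -0.188 to 0.021 for Hsph1, -0.108 to 0.941 for Fos and -0.542 to 0.740 for Egr1. EV200 against normal ranged over -0.092 to 0.027 for Dnajb1, -0.508 to 1.195 for Fos, -0.049 to 0.431 for Junb and -0.127 to 1.264 for Egr1. EV400 against PBS ranged over -0.137 to 0.062 for Hsph1, and EV400 against EV200 over -0.685 to 0.684 for Fos and -0.815 to 0.443 for Atf3. Fos and Atf3 had the lowest counts of the 10 genes, 17 to 251 and 34 to 279 reads per library.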
